A study of Caenorhabditis elegans with 8 samples.

Results

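The nspa, nspb, nspc, nspd and nspe genes of Caenorhabditis elegans encode short peptides that are found in nematodes and are grouped into families A to E by sequence. They were taken from a table of gene counts by name, as all rows called nspa to nspe followed by a number, which gave 64 of 46433 rows: 12 nspa, 12 nspb, 20 nspc, 12 nspd and 8 nspe genes. The families were selected on the strain difference seen earlier in these same libraries, so the differences between strains given here are descriptions and support nothing beyond themselves. Whole arrested L1 larvae of strain HBR227, which carries aptf-1(gk794), were compared with larvae of the wild-type strain N2. In each strain 4 libraries were sequenced, labelled replicate A to D. The labels give them as biological replicates but do not say whether each came from its own culture. The p-values cover only the spread between these libraries. The larvae of both strains received no treatment, came from eggs freed by hypochlorite and held in M9 buffer, and were collected after 48 hours. Total counts ran from 48460936 to 65016907 in HBR227 libraries and from 43567457 to 56437348 in N2 libraries.

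L1 arrest is the halt of larvae that hatch without food. An AP2-type transcription factor is made from aptf-1, and the sleep neuron RIS needs it to express the neuropeptide gene flp-11. For most nsp families little is known beyond their restriction to nematodes and their small tandem genes, while nspd genes of C. elegans are known for expression during sperm formation. RNA came from whole animals, so fewer cells of a type and less RNA per cell cannot be told apart.

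Both label checks matched the strains: aptf-1 stood at 0.982 ± 0.176 CPM in HBR227 and 3.73 ± 0.463 CPM in N2, and flp-11 at 44.9 ± 1.87 CPM in HBR227 and 153 ± 8.18 CPM in N2 (CPM, counts scaled to library size with TMM factors; SD, n = 4 each). HBR227 replicate A stood apart from the other HBR227 libraries in several marker lists. A list of 13 oocyte and eggshell genes summed to 522 CPM there, against 165 to 186 CPM in HBR227 B, C and D and 140 to 185 CPM in N2. A list of 7 moult and cuticle genes summed to 371 CPM in HBR227 A, against 788 to 858 CPM in HBR227 B, C and D and 678 to 805 CPM in N2. Family sums and members whose calls changed without this library are given with and without it, and the part of these markers in them was not tested.

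The members are small genes at 25 loci, where members less than 20 kb apart count as 1 locus. Of the 64 members, 48 lie in 9 loci of several genes and 16 lie alone. In the annotation 58 are protein-coding and 6 are pseudogenes: nspa-11, nspa-12, nspc-8, nspc-11, nspd-11 and nspd-12. All coding nspa genes have 34 codons in 1 exon, and their models of 105 bases hold no untranslated sequence. The nspb genes have 79 to 86 codons and the coding nspc genes 101 or 103 codons, all in 2 exons. The coding nspd genes have 70 to 73 codons in 1 exon, and the nspe genes 71 to 75 codons, in 1 exon in nspe-1 and nspe-2 and in 2 exons in the other 6.

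The nspc family is placed on chromosome X alone, in 3 loci. The first holds nspc-1 to nspc-7 (chromosome X, 8534672 to 8542283, WBcel235). The second holds nspc-8 to nspc-15 (12342289 to 12361159), and the third nspc-16 to nspc-20 (14523575 to 14530207). All 8 nspe genes lie in 1 locus of 16.9 kb on chromosome II (12612518 to 12629384). Of the nspb genes, nspb-7 to nspb-10 lie together on chromosome II (14578313 to 14588262) and nspb-1 to nspb-5 on chromosome IV (6590734 to 6599610), while nspb-6, nspb-11 and nspb-12 lie alone. The nspd genes are the most scattered, with pairs nspd-4 with nspd-5 and nspd-3 with nspd-6 and no larger group.

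Of the nspa genes, 7 lie within 12.8 kb on chromosome V (14878348 to 14891186) in a repeated order. The starts of nspa-5 and nspa-4 are 6368 bases apart, as are those of nspa-3 and nspa-1 and those of nspa-7 and nspa-6, and nspa-2 follows nspa-4 after 6366 bases. In 4 pairs of members Ensembl gives both genes the same name: nspa-1 with nspa-3, nspa-4 with nspa-5, nspa-6 with nspa-7, and nspc-2 with nspc-6. The deposited table has a row for each.

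Some rows of the table held almost the same counts. Whether reads were counted for both copies is not given in the labels and was not tested. The rows nspa-6 and nspa-7 had identical counts in all 8 libraries, at 6, 9, 8 and 3 in HBR227 A to D and 9, 10, 6 and 20 in N2 A to D. The nspa-1 and nspa-3 rows differed by 1 count in 1 library. The nspc-12 and nspc-15 rows differed by at most 5 counts in a library, while summing to 7499 counts. Counts of nspa-4 and nspa-5 were not alike, at 175, 113, 96 and 92 for nspa-4 and 63, 45, 49 and 39 for nspa-5 in HBR227. Values of single members of the 3 near-equal pairs are uncertain, and family sums would count any shared read for each row. A fit of the sums with 1 row of each near-equal pair, added after the data were seen, gave a log2 difference of 0.34 in place of 0.27 for nspa and 1.07 in place of 1.08 for nspc. One member overlaps exons of another gene: 90.2% of the nspc-15 exon length lies in exons of F19H6.6 on the same strand. That gene itself had 28 to 69 counts in HBR227 and 19 to 52 counts in N2, far below nspc-15.

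**Figure D1:**
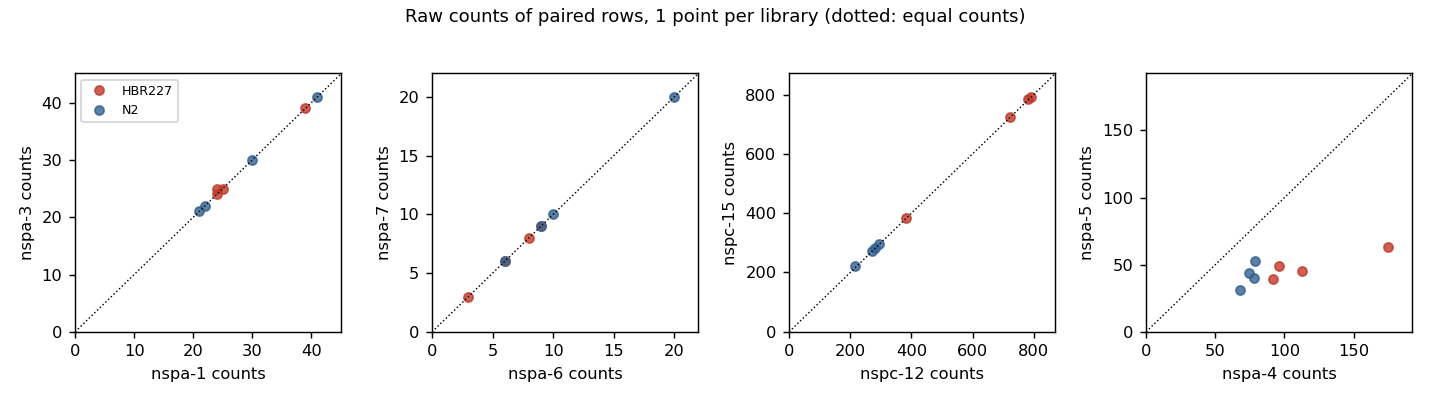
Raw counts of paired rows in the 8 libraries, 1 gene on each axis, with HBR227 libraries in red and N2 libraries in blue and a dotted line at equal counts. The pairs nspa-1 with nspa-3, nspa-6 with nspa-7 and nspc-12 with nspc-15 lie on the line, with differences of at most 5 counts, whereas nspa-4 exceeds nspa-5 in all libraries, so those points lie below the line.

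The families differed widely in abundance. In HBR227, nspc genes together took 0.0155% ± 0.00339 of all counts, nspe genes 0.00296% ± 0.000699, nspb genes 0.00177% ± 0.000885, nspa genes 0.000547% ± 0.000167 and nspd genes 0.00017% ± 1.1e-05 (SD, n = 4). In N2 the shares were 0.00787% ± 0.000479 for nspc, 0.00286% ± 0.000252 for nspe, 0.00196% ± 0.000159 for nspb, 0.000488% ± 7.2e-05 for nspa and 0.000195% ± 2.2e-05 for nspd (SD, n = 4). The order of the means was the same in both strains. In N2 the families did not overlap, while in HBR227 A the nspb share of 0.000491% lay below the nspa share of 0.000792%. A single library shows the counting error: the 384 nspa counts of HBR227 A gave a share of 0.000792% with an exact Clopper-Pearson 95% interval from 0.000715% to 0.000876%, which covers counting error only.

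Within families a few genes carried most of the counts. The row nspb-12 held 67% of all nspb counts and nspd-7 held 54.1% of all nspd counts, while nspa-4 held 36%, nspe-7 27.4% and nspc-20 24.8% of theirs. Per kb of exon, nspc-20 was highest in both strains, at 104 ± 21.4 CPM per kb in HBR227 and 51.2 ± 3.61 CPM per kb in N2 (SD, n = 4). In N2 the next were nspc-19 (34.9 ± 3.08), nspe-1 (34.4 ± 3.18), nspb-12 (33.6 ± 3.14) and nspc-16 (32.2 ± 2.91 CPM per kb), which did not differ beyond their spread. In HBR227 the ranks after nspc-20 were nspc-16 (68.1 ± 13.8), nspc-19 (65.8 ± 13.5), nspc-17 (44.7 ± 8.08) and nspe-1 (36.1 ± 11.2 CPM per kb). Of the genes of all 5 families, 4 of the 5 highest per length were nspc genes of the third locus in HBR227, and 3 of 5 were in N2.

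Of the 64 members, 35 passed the filter on low counts and were tested. The 29 untested members held 0 to 73 counts over all 8 libraries together: 6 nspa, 7 nspb, 5 nspc and 11 nspd genes. The nspd-8 and nspd-12 rows had 0 counts in every library, which allows up to 0.0461 to 0.0689 unscaled CPM by library (3 counts of each total). Among tested members 13 rose in HBR227 and 0 fell by edgeR, with 16 and 0 at an unadjusted p under 0.05. DESeq2, run on all members with any count, called 15 higher and 0 lower. Over all 17522 genes tested, edgeR called 21.5%, made up of 11.2% higher and 10.4% lower. The members that rose were 12 of 15 tested nspc genes and 1 of 8 nspe genes, with none of 6 nspa, 5 nspb and 1 nspd genes. The median log2 fold change was 0.42 over the 35 tested members and -0.00 over all genes tested. In 13 tested members all HBR227 libraries lay above all N2 libraries, and in none below, against 14.5% and 14.4% of all genes tested. These were 11 nspc genes, nspe-6 and nspa-4, and among untested members nspd-11 lay above and nspc-5 below. Nothing is read from these shares, because the strain difference chose the families.

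**Figure D2:**
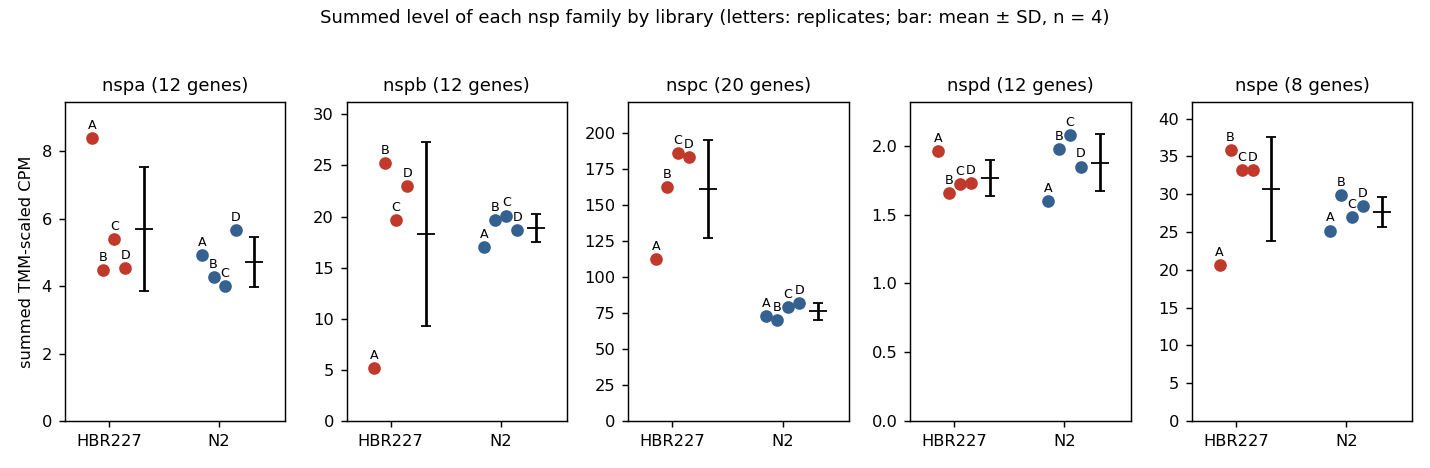
Summed TMM-scaled CPM of each family by library, with HBR227 left of N2, letters for replicates and bars for the mean ± SD (n = 4). The nspc sum lies at 112 to 186 CPM in HBR227 and at 69.9 to 82.1 CPM in N2, while HBR227 A lies below all other libraries in nspb and nspe and above them in nspa.

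Taken as a whole the nspc family rose, and its strains did not overlap. Its summed counts were 5133, 10358, 9526 and 9197 in HBR227 A to D and 3253, 4208, 3889 and 4403 in N2 A to D. In TMM-scaled CPM the sum was 161 ± 34.2 in HBR227 and 75.9 ± 5.69 in N2 (SD, n = 4 each). The log2 fold change was 1.08, with a standard error of 0.15; later values after ± on log2 fold changes are also standard errors. HBR227 A was the lowest of its strain, at 1.47 times the N2 mean, and HBR227 B, C and D averaged 2.33 times the N2 mean. Without HBR227 A the log2 fold change was 1.22 ± 0.06.

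The nspc loci were also summed one by one, and the differences between loci were not tested. The third locus summed to 83.6, 121, 134 and 132 CPM in HBR227 A to D and to 53.6, 53.4, 59.6 and 63.3 CPM in N2 A to D, a log2 fold change of 1.03 ± 0.14. The second summed to 27.8, 40.1, 51.4 and 49.3 CPM in HBR227 and to 17, 15, 18.8 and 17 CPM in N2, a log2 fold change of 1.32 ± 0.18. In both loci every HBR227 library stood above every N2 library, with HBR227 A nearest to N2. The first locus summed to only 29, 53, 59 and 66 counts in HBR227 A to D and to 83, 87, 48 and 95 counts in N2 A to D, or 0.981 ± 0.308 CPM in HBR227 and 1.51 ± 0.396 CPM in N2. Its log2 fold change was -0.62 ± 0.27, it was not called, and the strains overlapped through N2 C.

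Ratios of the loci within a library need no scaling between libraries. Summed counts of the third locus were 132, 146, 116 and 101 times those of the first in HBR227 A to D, and 29, 37, 60.9 and 35.8 times in N2 A to D. For the second locus over the first, the ratios were 44, 48.4, 44.6 and 37.6 in HBR227 and 9.2, 10.4, 19.2 and 9.58 in N2. The strains did not overlap in either ratio, and N2 C was the N2 library nearest to HBR227. HBR227 A was not apart from the other HBR227 libraries in them. The second locus over the third gave 0.333, 0.331, 0.385 and 0.373 in HBR227 and 0.318, 0.281, 0.315 and 0.268 in N2, so the second made up slightly more in each HBR227 library. The second locus holds the near-equal rows nspc-12 and nspc-15, so its sums and ratios would count any shared read for each row. These ratios were formed after the values had been seen, and no test was made.

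**Figure D3:**
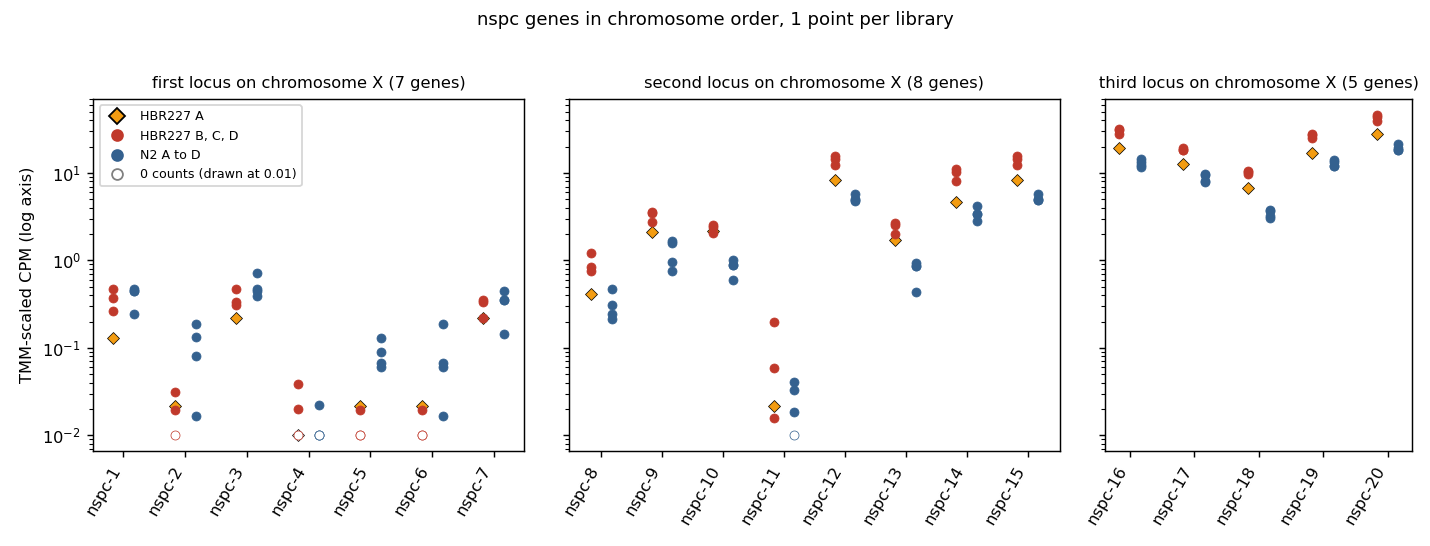
TMM-scaled CPM (log axis) of the 20 nspc genes in chromosome order at their 3 loci on chromosome X, 1 point per library, with HBR227 left of N2, HBR227 A as orange diamonds and 0 counts as open points at 0.01. From nspc-12 to nspc-20 all HBR227 points lie above all N2 points, and nspc-1 to nspc-7 stay below 1 CPM in every library.

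All 5 genes of the third locus rose. The most abundant, nspc-20 (WBGene00008356, 14529788 to 14530207, minus strand), had 1276, 2533, 2353 and 2205 counts in HBR227 A to D and 816, 1115, 957 and 1139 in N2 A to D. Its CPM was 39.3 ± 8.09 in HBR227 and 19.4 ± 1.37 in N2, a log2 fold change of 1.02 ± 0.14. The largest difference of the locus was in nspc-18 (WBGene00008358, 14527170 to 14527659, minus strand), with 308, 615, 529 and 522 counts in HBR227 and 145, 183, 178 and 201 in N2. That gene stood at 9.26 ± 1.73 CPM in HBR227 and 3.41 ± 0.332 CPM in N2, with a log2 fold change of 1.44 ± 0.15. For both genes the lowest HBR227 library was A, and it still lay above the highest N2 library.

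The other 3 genes of the locus had log2 fold changes of 0.91 to 1.08. In CPM nspc-16 had 19.5, 28.2, 31.4 and 31.2 in HBR227 and 12.4, 11.8, 13.5 and 14.5 in N2, a log2 fold change of 1.08 ± 0.15. nspc-19 had 17, 25.2, 27.4 and 27.7 CPM in HBR227 and 12, 11.9, 13.5 and 14.2 CPM in N2 (log2 fold change 0.91 ± 0.15). Counts of nspc-16 and nspc-19 were 4.42% apart in sum, the nearest pair after the near-equal rows. nspc-17 had 12.5, 18.4, 18.3 and 19.1 CPM in HBR227 and 7.8, 8.12, 9.44 and 9.64 CPM in N2 (0.96 ± 0.14).

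In the second locus 7 of 8 genes rose and the pseudogene nspc-11 was too low to test, at 1, 1, 3 and 10 counts in HBR227 and 0, 2, 2 and 1 in N2. The near-equal rows nspc-12 (WBGene00023493) and nspc-15 (WBGene00009639) stood at 12.6 ± 3.15 and 12.6 ± 3.14 CPM in HBR227 and at 5.13 ± 0.413 and 5.17 ± 0.393 CPM in N2. Their log2 fold changes of 1.30 ± 0.18 and 1.29 ± 0.18 are therefore close to 1 measurement given 2 times. nspc-14 had 4.71, 8, 11.2 and 10.3 CPM in HBR227 and 3.43, 2.86, 3.37 and 4.16 CPM in N2 (1.31 ± 0.25), so HBR227 A lay just above the highest N2 library.

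Lower in abundance, nspc-13 (WBGene00009637) had 78, 129, 131 and 133 counts in HBR227 and 42, 26, 42 and 46 in N2, with the largest log2 fold change of all called members, 1.55 ± 0.25. nspc-10 (WBGene00009640) had 99, 133, 122 and 129 counts in HBR227 and 45, 54, 44 and 32 in N2 (1.44 ± 0.18). It was the 1 called nspc gene in which HBR227 A did not lie below B, C and D in CPM, at 2.16 against 2.08, 2.38 and 2.57. nspc-9 stood at 2.98 ± 0.692 CPM in HBR227 and 1.24 ± 0.446 CPM in N2 (1.28 ± 0.27). The pseudogene nspc-8 had 19, 48, 43 and 62 counts in HBR227 and 14, 13, 23 and 13 in N2 (1.40 ± 0.37). In nspc-8 the strains overlapped in CPM, since HBR227 A at 0.415 lay below N2 C at 0.469. Its call was lost, with log2 fold changes of 1.13 to 1.42, when HBR227 C, HBR227 D, N2 A, N2 B or N2 D was left out.

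In the first locus none of the 3 tested genes passed. nspc-3 had 10, 20, 17 and 24 counts in HBR227 and 32, 27, 19 and 25 in N2 (log2 fold change -0.57 ± 0.30), nspc-1 gave -0.37 ± 0.38 and nspc-7 gave -0.23 ± 0.36. Of the untested genes there, nspc-5 had 1, 0, 1 and 0 counts in HBR227 and 4, 4, 3 and 7 in N2. The Ensembl namesakes nspc-2 and nspc-6 had at most 2 counts in any HBR227 library and 1 to 10 counts in N2 libraries.

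Genes around the nspc loci were compared by the same fit, as position was not used to choose the members. Of 13 tested genes that lie within 10 kb of an nspc gene, 2 were higher and 0 lower (15.4% called, median log2 fold change -0.09), against 21.5% and -0.00 over all genes. Both lie beside the first locus: the neuropeptide gene flp-5 (0.37 ± 0.06) and dhhc-14 (0.26 ± 0.08). Beside the other 2 loci, where the nspc genes rose, edgeR called 0 of 5 and 0 of 4 neighbours (0 and 1 at an unadjusted p under 0.05, and 0 and 0 by DESeq2). The nearest to the third locus was D1025.1 (14520763 to 14522705), at 13.8 ± 0.577 CPM in HBR227 and 13 ± 0.361 CPM in N2 (0.08 ± 0.07). Around all members together 17 of 123 tested neighbours were higher and 7 lower (19.5% called, median -0.02).

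**Figure D4:**
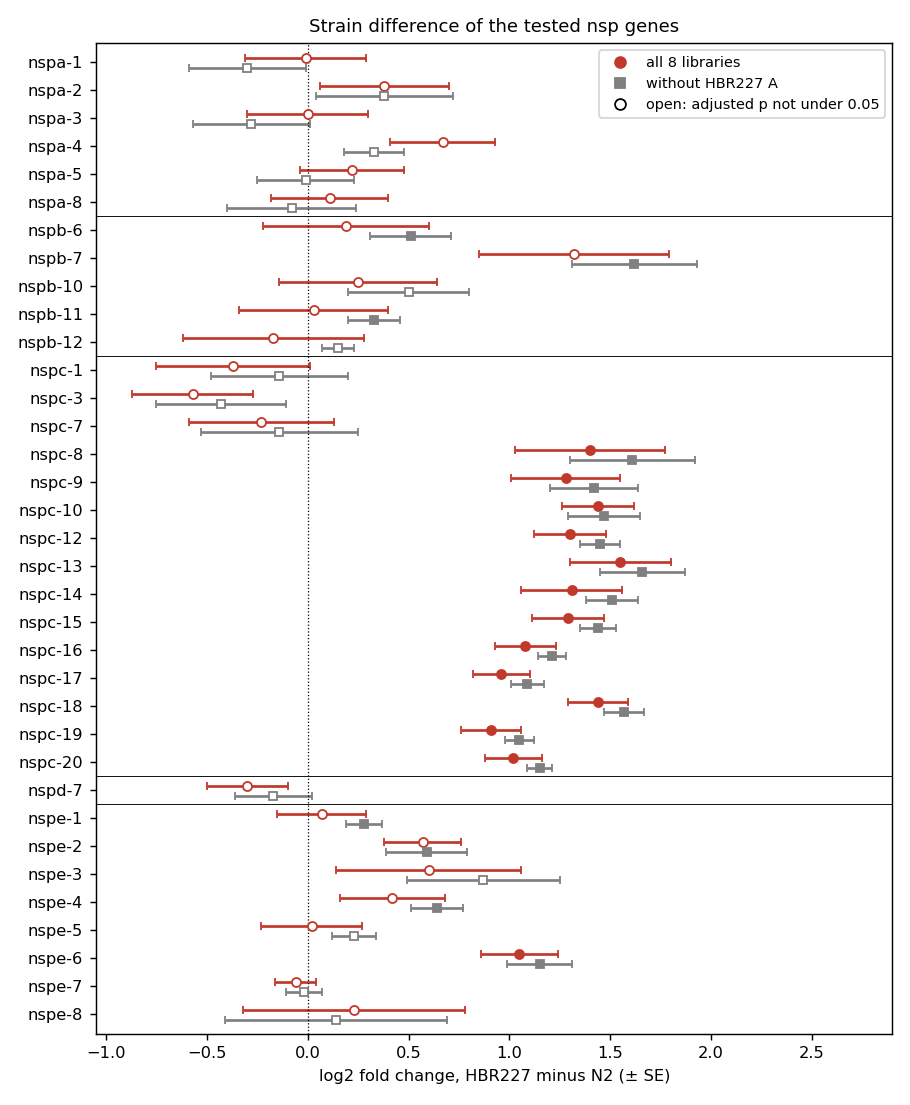
Log2 fold change, HBR227 minus N2, of the 35 tested members with its standard error, with all 8 libraries (red circles) and without HBR227 A (grey squares), filled where the adjusted p was under 0.05. The called nspc genes lie between 0.91 and 1.55 with all libraries, and without HBR227 A all 5 nspb genes and 7 of 8 nspe genes move to the right.

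Among nspe genes edgeR called nspe-6 alone, and DESeq2 also called nspe-2 (log2 fold change 0.58). nspe-6 (WBGene00012603, chromosome II, 12615828 to 12616181, minus strand) had 103, 179, 180 and 152 counts in HBR227 A to D and 60, 68, 66 and 96 in N2 A to D. Its CPM was 2.9 ± 0.526 in HBR227 and 1.4 ± 0.278 in N2, a log2 fold change of 1.05 ± 0.19, and all HBR227 libraries lay above all N2 libraries. The most abundant members did not pass: nspe-7 had 336, 563, 390 and 390 counts in HBR227 and 334, 490, 399 and 488 in N2 (-0.06 ± 0.10), and nspe-5 gave 0.02 ± 0.25.

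HBR227 A separated from its strain in other nspe genes. nspe-1 had 4.23, 9.56, 8.73 and 8.69 CPM in HBR227 and 7.31, 8.39, 7.22 and 6.77 CPM in N2 (0.07 ± 0.22), so HBR227 A was the lowest of all 8 libraries and B, C and D the highest. nspe-4 had 1.64, 3.87, 4.08 and 3.94 CPM in HBR227 and 2.25, 3.04, 2.61 and 2.22 CPM in N2 (0.42 ± 0.26), with the same order. Without HBR227 A the log2 fold changes were 0.28 ± 0.09 for nspe-1, 0.64 ± 0.13 for nspe-4 and 0.59 ± 0.20 for nspe-2, and all 3 were called. nspe-2 had 60, 108, 75 and 51 counts in HBR227 and 35, 62, 43 and 54 in N2, and with all 8 libraries it gave 0.57 ± 0.19 and was not called by edgeR. In nspe-2 HBR227 A did not stand apart, at 1.31 CPM against 1.69, 1.47 and 1.01 CPM in B, C and D. That gene was also called without HBR227 D, at 0.69. The low rows nspe-3 (0.60 ± 0.46) and nspe-8 (0.23 ± 0.55) were not called with or without that library. The nspe sum was 30.7 ± 6.87 CPM in HBR227 and 27.6 ± 2 CPM in N2, with a log2 fold change of 0.15 ± 0.15 that became 0.30 ± 0.06, called, without HBR227 A.

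The same library decided the nspb sum. Summed nspb counts were 238, 1611, 1007 and 1154 in HBR227 A to D and 764, 1187, 985 and 1001 in N2 A to D. HBR227 A stood at 0.275 times the N2 mean in CPM and the other HBR227 libraries averaged 1.2 times. The sum was 18.2 ± 8.99 CPM in HBR227 and 18.9 ± 1.37 CPM in N2 (log2 fold change -0.05 ± 0.41, not called), and without HBR227 A it was 0.26 ± 0.08 and called. nspb-12 (WBGene00017305, chromosome III, 5568213 to 5568779, minus strand) had 129, 1022, 679 and 739 counts in HBR227 and 516, 860, 681 and 702 in N2 (-0.17 ± 0.45). nspb-11 had 52, 331, 185 and 225 counts in HBR227 and 160, 186, 188 and 197 in N2 (0.03 ± 0.37). nspb-6, alone on chromosome IV, had 11, 86, 60 and 61 counts in HBR227 and 39, 40, 54 and 48 in N2 (0.19 ± 0.41).

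These 3 nspb genes lie at different loci, on chromosomes III, II and IV, and all were lowest of all libraries in HBR227 A. The summed locus of nspb-7 to nspb-10 was also lowest there, at 0.458 CPM, but that of nspb-1 to nspb-5 was not. The latter, with few counts, summed to 0.546, 0.687, 0.371 and 0.577 CPM in HBR227 A to D. In N2 A to D it summed to 0.312, 0.448, 0.306 and 0.466 CPM. Without HBR227 A, nspb-6 (0.51 ± 0.20), nspb-11 (0.33 ± 0.13) and nspb-7 (1.62 ± 0.31) were called and nspb-12 (0.15 ± 0.08) was not. With all 8 libraries nspb-7 gave 1.32 ± 0.47 and was not called by edgeR. nspb-7, with 8, 64, 31 and 48 counts in HBR227 and 9, 23, 15 and 11 in N2, was chosen for mention after its values were seen. In that fit 19 of 35 tested members were higher and 0 lower, and all 13 earlier calls were kept. Over all 17850 genes tested there 44.3% were called, 21.0% higher and 23.3% lower, so a larger share of members called is also a larger share of all genes.

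**Figure D5:**
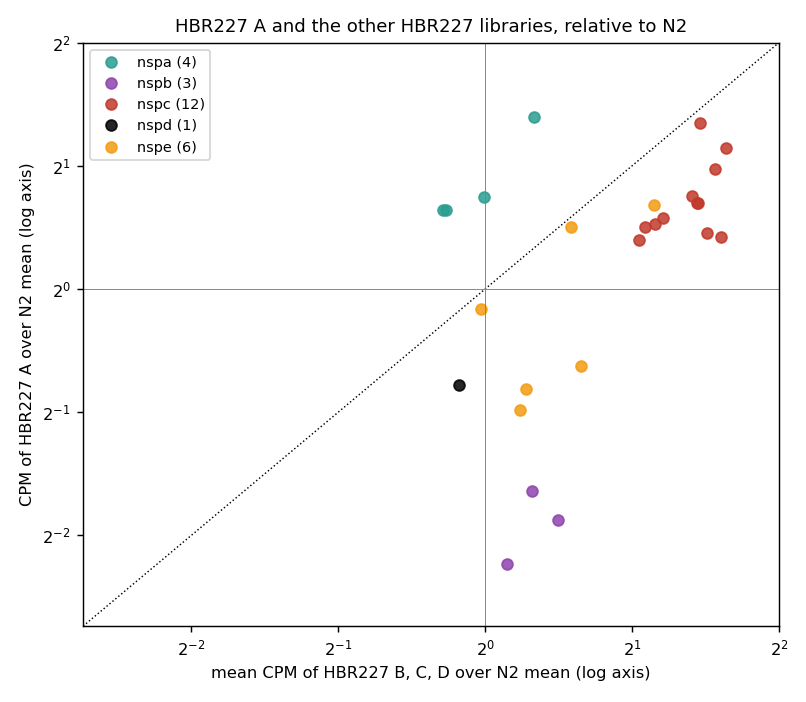
CPM of HBR227 A (vertical) and mean CPM of HBR227 B, C and D (horizontal), each divided by the N2 mean on log axes, for the 26 most abundant or called members by family, with a dotted line at equal ratios. The nspb genes lie at 0.213 to 0.32 in HBR227 A and 1.11 to 1.41 in the others, the nspa genes lie above the line, and the nspc genes lie above 1 on both axes.

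In the nspa sum and the most abundant nspa genes HBR227 A lay the other way. nspa-4 (WBGene00044272, chromosome V, 14884716 to 14884820, plus strand) had 3.82, 1.77, 1.88 and 1.83 CPM in HBR227 A to D and 1.65, 1.3, 1.39 and 1.47 CPM in N2 A to D. All HBR227 libraries were above all N2 libraries, yet the difference did not pass (0.67 ± 0.26, and 0.33 ± 0.15 without HBR227 A). nspa-5 had 63, 45, 49 and 39 counts in HBR227 and 44, 40, 31 and 53 in N2 (0.22 ± 0.26). The near-equal rows nspa-1 and nspa-3 had 39, 24, 25 and 24 counts (nspa-1) in HBR227 and 21, 30, 22 and 41 in N2, with log2 fold changes of -0.01 ± 0.30 and -0.00 ± 0.30. In each of these 4 genes HBR227 A was above B, C and D. Of the other tested nspa genes, this held for nspa-8, at 0.567 CPM against 0.437, 0.293 and 0.318. It did not hold for nspa-2, at 0.524 CPM in HBR227 A against 0.359, 0.82 and 0.398 in B, C and D. The nspa sum was 8.38, 4.48, 5.39 and 4.53 CPM in HBR227 and 4.93, 4.27, 4.0 and 5.65 CPM in N2, a log2 fold change of 0.27 ± 0.21 that was not called. Without HBR227 A it was 0.03 ± 0.13, also not called.

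The nspd genes had few counts. Their 12 rows summed to 90, 106, 88 and 87 counts in HBR227 A to D and to 72, 119, 102 and 99 in N2 A to D, a log2 fold change of -0.09 ± 0.13 that was not called (-0.14 ± 0.15 without HBR227 A). nspd-7 (WBGene00012781, chromosome IV, 10268975 to 10269187, minus strand), the 1 member that could be tested, had 29, 61, 47 and 51 counts in HBR227 and 43, 58, 63 and 61 in N2 (-0.30 ± 0.20). nspd-2 had 8, 1, 0 and 0 counts in HBR227 and 0 in all N2 libraries, which is too few to compare. The major sperm protein genes were low as well: their 35 rows summed to 7.51 CPM in HBR227 A, 3.14 to 4.04 CPM in HBR227 B, C and D and 3.86 to 5.18 CPM in N2. Of them 5 could be tested and edgeR called 0 (0 at an unadjusted p under 0.05 and 0 by DESeq2). The 3 nspf genes, a further nsp family expressed in sperm, held at most 3 counts in a HBR227 library and 6 in an N2 library. Of 23 tested genes of other sperm-enriched families 0 were higher and 1 lower (median -0.11), against 11.2% and 10.4% of all genes tested.

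In the caenacin, fungus-induced peptide and antibacterial factor lists no tested gene was called higher. Of 8 tested caenacin genes, which encode antimicrobial peptides, 0 were higher and 2 lower (median -0.25). Of 22 tested fungus-induced peptide genes 0 were higher and 2 lower (median -0.14), and of 4 tested antibacterial factor genes 0 were higher and 1 lower (median 0.01). The caenacins summed to 62.7 CPM in HBR227 A and 89.9 to 105 CPM in HBR227 B, C and D, against 89.1 to 106 CPM in N2. The fungus-induced peptides summed to 154 CPM in HBR227 A and 276 to 302 CPM in HBR227 B, C and D, against 249 CPM at most in N2, and both lists were lowest in HBR227 A. Of 6 vitellogenin genes, which encode yolk proteins, 1 was higher (vit-6, 0.96) and 0 lower, of the 13 oocyte and eggshell genes edgeR called 0 (0 at an unadjusted p under 0.05 and 0 by DESeq2), and of the 7 moult and cuticle genes 0 were higher and 1 lower. Calls in these lists were not counted without HBR227 A. The difference between these lists and the nspc family was not tested.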

How the data were processed

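RNA was sequenced from whole arrested L1 larvae of strains HBR227 and N2, in 4 libraries each. The authors deposited raw counts per gene, not scaled, as 1 table of 46433 rows. Bowtie 0.12.2 and the builds WBcel235 and mm8 are named, without a role, per the submitters' processing notes. The counting program, its use of strand and its treatment of reads that map to several copies were not given in these sources. In 11 rows the name had become a date, and these rows (at most 0.0357% of a library's counts) were left out of the tests.

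Counts were fitted in R 4.3.3 with edgeR 4.0.16: TMM scaling, filterByExpr with a minimum count of 10, and the quasi-likelihood test over all 8 libraries without covariates. The Benjamini-Hochberg adjustment ran over all genes tested, and a gene with an adjusted p under 0.05 was called. A standard error is the size of the log2 fold change over the square root of F. Family and locus sums replaced the rows of their members in fits of their own, and locus sums were added after the data were seen. Members of 1 locus lie less than 20 kb apart. Positions are WBcel235, 1-based, from RefSeq symbols, which matched all 64 members, and exons are from Ensembl release 115.

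The members and lists were chosen with earlier results of these data known. The names in the text follow a rule: in each family the 6 members with the highest mean CPM over all 8 libraries, where that mean was at least 0.5 CPM, and every called member. Members named outside it were chosen after their values were seen. Alternatives were DESeq2 size factors, total counts alone, DESeq2 1.42.0 as the test, no low-count filter, a threshold of 0.01, a replicate block by letter, and leaving out each library in turn. The script was tested on simulated data. Sums grouped by protein identity and a promoter motif search were planned but not run. Plots were made with matplotlib 3.10.9 (Python 3.11.15).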

Additional observations from a re-analysis of the deposited data

Results flagged for a closer look

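In 62 groups of 4 libraries (each family sum and each of the 26 members named by rule, by strain) a single library lay far from the other 3 in 8 cases. The rule flags about 1 in 20 independent groups by chance. These groups share libraries and hold sums beside their members and near-equal rows, so no excess over chance can be read from the 8 cases. HBR227 A was that library in 5 of them. It was low in nspb-6 (0.24 CPM, the others 1.17 to 1.34), nspc-17 (12.5, the others 18.3 to 19.1), nspe-1 (4.23, the others 8.69 to 9.56) and nspe-4 (1.64, the others 3.87 to 4.08), and high in nspa-4 (3.82, the others 1.77 to 1.88). N2 D was high in the near-equal rows nspa-1 and nspa-3, at 0.764 CPM in each against 0.449 to 0.498. N2 B was low in nspc-13, at 0.432 CPM against 0.857 to 0.936.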

How the results depend on the processing

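The nspc sum was called under every alternative run, at log2 fold changes of 0.98 (total counts alone) to 1.22 (without HBR227 A). The members called were 12 to 19 higher and 0 lower in all fits, 12 at an adjusted p under 0.01. Of the 13 called members only nspc-8 lost its call. The nspb sum changed sign, with -0.24 to 0.26 when 1 library was left out and 0.00 without N2 C; the nspe sum gave 0.07 to 0.30 and the nspa sum 0.03 (without HBR227 A) to 0.38. Same-letter deviations from the strain means correlated at -0.0377 to 0.182, and only HBR227 B correlated best with the N2 library of its letter. Pairing by letter was not tested beyond this. With the replicate block 13 members were called, the nspc sum was 1.06 and the nspb sum -0.23. Signs turned in uncalled members. With total counts alone, which moved the median of all genes to -0.11, nspb-11 was -0.06, nspe-1 -0.03 and nspe-5 -0.09. With the block nspb-11 was -0.10 and nspe-5 -0.05. DESeq2 gave 0.00 for nspa-1 and 0.01 for nspa-3, its size factors 0.00 for nspa-3, and no filter 0.01 for nspa-3. Leaving out 1 library, nspa-1 ran from -0.30 to 0.20, nspa-3 from -0.28 to 0.21, nspa-5 from -0.01 to 0.34, nspb-11 from -0.20 to 0.33, nspb-12 from -0.36 to 0.15, nspe-1 from -0.04 to 0.28, nspe-5 from -0.10 to 0.23 and nspe-7 from -0.12 to 0.00. Without the row holding most counts, family shares in HBR227 and N2 were 0.0117% and 0.00586% for nspc, 0.0022% and 0.00201% for nspe, 0.000636% and 0.000589% for nspb, 0.000324% and 0.000337% for nspa, and 8.5e-05% and 8.2e-05% for nspd. No joined row held a member, and sums by protein identity were not run. The cause of these changes was not tested. The 29 untested members held too few counts to be tested, and whether depth or absent expression sets this was not tested.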
